A study of Homo sapiens with 20 samples.

Results

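The expression of 34 genes of autophagy and the lysosome was followed in B5/589 cells, immortalized epithelial cells of human mammary origin in which doxycycline switches on a p53 transgene. The genes were listed by name, and each was found by its symbol among the transcript clusters of the array, a transcript cluster being the set of probes for 1 transcription unit. All 34 listed genes had a cluster with 1 symbol, out of 18417 genes named in this way. ATG2B and ATG4B had 2 such clusters each, and the brighter one was used.

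Macroautophagy wraps a portion of cytoplasm in a double membrane, the autophagosome, and delivers it to the lysosome for digestion. A kinase complex around ULK1 starts the process, a lipid kinase complex around BECN1 marks the membrane, and a pair of ubiquitin-like conjugation systems attach LC3-type proteins to it. Cargo receptors such as SQSTM1 tether what is to be degraded, cathepsins digest it inside the lysosome, and DRAM1, a lysosomal membrane protein, is a known p53 target that links p53 to autophagy.

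Total RNA was measured on 20 arrays, 4 in each of 5 groups: uninduced cells (0 ng of doxycycline) at 24 h, and cells given 3 ng or 5 ng, each collected at 12 h and at 24 h. Every group carries the inducible p53 transgene, and all cells grew in serum with epidermal growth factor. The labels give the doses with no volume, they name uninduced cells at 24 h only, and they do not say whether the transgenic cells are 1 clone. Nothing says whether the 4 arrays of a group are separate cultures, so p-values reflect only how far these samples spread, and that spread may be technical.

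The deposited signals are on the log2 scale and are not centred alike: array medians ran from 4.54 to 5.54, and their group means were 5.07 at 0 ng, 5.15 and 4.96 at 12 h with 3 and 5 ng, and 4.85 and 4.80 at 24 h with 3 and 5 ng. Because the induced 24 h arrays were dimmer as a whole, the differences described are given as deposited and after quantile normalization, which gives all arrays the same distribution. Against 0 ng at 24 h the median of all genes shifted by -0.23 at 3 ng and -0.24 at 5 ng as deposited, and by 0.08 and 0.07 after quantile normalization. In what follows, a gene is said to have risen or fallen where the adjusted p was under 0.05 on both scales (limma with Benjamini-Hochberg over all genes). Both scales come from the same arrays and are not independent. At 24 h all 276 genes called higher at 3 ng as deposited, and all 833 at 5 ng, were also called higher after quantile normalization. For these rises the added scale thus removed no call. Of 4333 genes called lower at 5 ng as deposited, 3144 were called lower on both scales. All 4 measured basal markers (KRT5, KRT14, ITGA6, ITGB4) had medians from 9.46 to 12.00, and the 6 luminal markers ran from 2.54 for ESR1 to 12.64 for KRT18. Markers of other cells had medians up to 6.20 for 7 fibroblast genes, 4.02 for 4 endothelial genes and 8.68 for 5 immune genes, where CD68, itself a lysosomal protein, was the highest and PTPRC, the pan-leukocyte marker, was at -0.36.

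At 5 ng for 24 h, DRAM1, SQSTM1, WIPI1 and LAMP1 rose, and DRAM2, ATG3, ULK2, ATG5, ATG16L1 and ATG4C fell. These are 4 rises and 6 falls among 34 genes, where 4.52% of all genes rose and 17.1% fell on both scales. As deposited alone, 4 members were called higher and 10 lower, against 4.52% and 23.5% of all genes. After quantile normalization alone, 19 were called higher and 6 lower, against 20.6% and 17.2% of all genes. The median difference of the 34 genes was -0.08 as deposited beside -0.24 for all genes, and 0.28 after quantile normalization beside 0.07. Of the 14 members called as deposited, 9 were called without replicate 2 of 5 ng. RNA from a whole culture cannot tell a change in every cell from a change in a share of the cells.

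**Figure D1:**
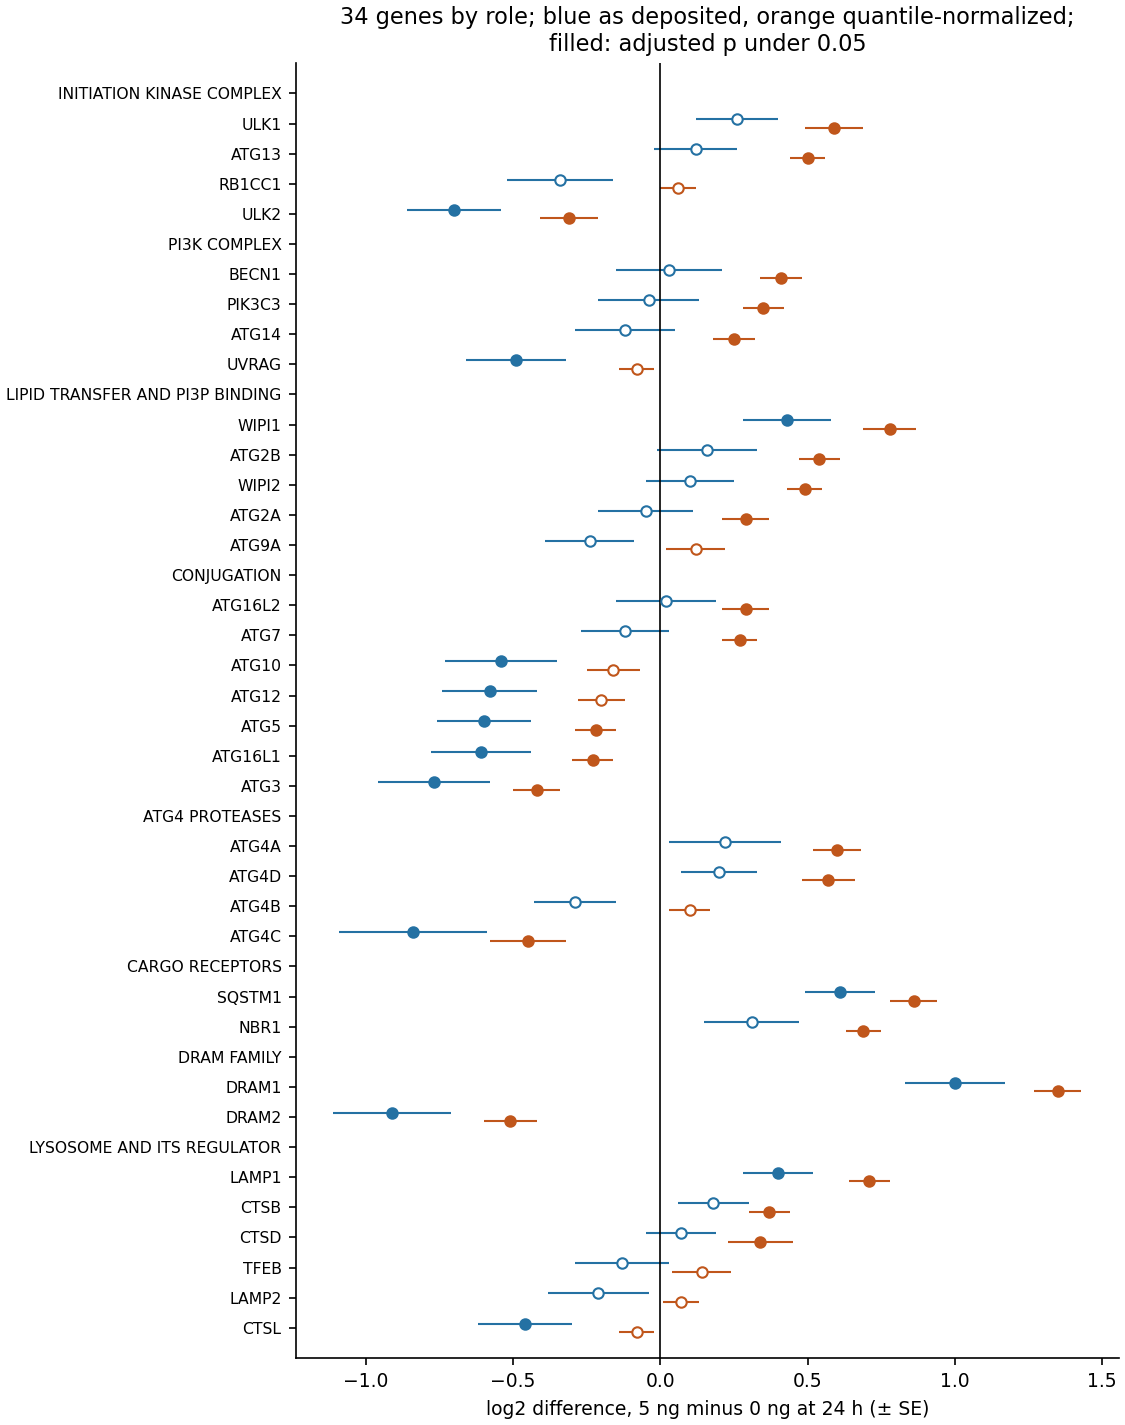
The log2 difference of 5 ng from 0 ng at 24 h (x axis, ± SE of the model, 4 arrays in each group) is plotted for all 34 genes, grouped by role, as deposited (blue) and after quantile normalization (orange), with filled points for an adjusted p under 0.05. DRAM1 lies farthest to the right at 1.00 and 1.35, and DRAM2, ATG3 and ATG4C lie to the left on both scales, and the orange point of each gene lies to the right of its blue one.

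At 3 ng for 24 h, DRAM1 and SQSTM1 rose and DRAM2 and ATG3 fell. On both scales 1.5% of all genes rose and 12.4% fell in that comparison. As deposited alone, 2 members were called higher and 10 lower, against 1.5% and 23% of all genes. After quantile normalization alone, 17 were called higher and 2 lower, against 15.4% and 12.5%. The median difference of the members was -0.16 as deposited, beside -0.23 for all genes, and 0.21 after quantile normalization, beside 0.08. Of the 12 members called as deposited, 4 were called when replicate 3 of 3 ng was removed, and 5 when replicate 4 of that group or uninduced replicate 1 or 4 was removed. Both doses share the 4 arrays of 0 ng, so their differences from it are not independent.

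The DRAM genes moved in opposite directions. DRAM1 encodes the damage-regulated autophagy modulator of the lysosomal membrane, and DRAM2 is its paralogue. The DRAM1 signal on the 4 arrays was 8.71, 8.54, 8.45 and 8.88 at 0 ng, 9.20, 9.28, 9.21 and 8.95 at 3 ng for 24 h, and 9.41, 9.71, 9.64 and 9.83 at 5 ng for 24 h. At 12 h it was 8.72, 9.41, 8.94 and 9.47 at 3 ng, and 9.10, 9.49, 9.49 and 9.59 at 5 ng. At 24 h the arrays of the 3 doses did not overlap, in the order of dose. DRAM1 was the only member in that order as deposited, where 1.15% of all genes rose and 2.37% fell in that order. After quantile normalization ATG2B, WIPI2, ATG4D, SQSTM1, LAMP1 and CTSB also rose in that order without overlap, and ATG3 fell in it. The share of all genes in that order on that scale is not given here.

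DRAM1 was higher than at 0 ng by 0.52 ± 0.17 at 3 ng for 24 h (SE, n = 4 arrays per group) or 1.43-fold (limma adjusted p = 0.0321), and by 0.98 ± 0.08 after quantile normalization (limma adjusted p = 1.96e-08). At 5 ng for 24 h it was higher by 1.00 ± 0.17, or 2.0-fold (limma adjusted p = 0.000123), and by 1.35 ± 0.08 after quantile normalization (limma adjusted p = 7.53e-11). The difference between 5 and 3 ng at 24 h was 0.49 ± 0.17 as deposited, which missed the threshold (limma adjusted p = 0.211), and 0.37 ± 0.08 after quantile normalization (limma adjusted p = 0.00291). As deposited, the 3 ng call was lost without any 1 of replicates 1, 2 and 3 of either 24 h group, with differences of 0.45 to 0.54 and limma adjusted p from 0.0559 to 0.0781, while the 5 ng call was kept without each of the 8 arrays in turn.

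DRAM2 went the other way. Its signal was 9.03, 8.98, 8.44 and 9.13 at 0 ng, 8.31, 8.28, 8.02 and 7.94 at 3 ng for 24 h, and 7.92, 8.02, 7.85 and 8.17 at 5 ng for 24 h. At 12 h it was 8.21, 9.09, 8.13 and 8.69 at 3 ng, and 8.03, 8.47, 8.47 and 8.47 at 5 ng. All induced arrays at 24 h were below the lowest uninduced array, and the groups of 3 and 5 ng overlapped. DRAM2 was lower by 1.69-fold at 3 ng, a difference of -0.76 ± 0.20 (limma adjusted p = 0.00761), and by 1.87-fold at 5 ng, a difference of -0.91 ± 0.20 (limma adjusted p = 0.00136). After quantile normalization the differences were -0.28 ± 0.09 (limma adjusted p = 0.0258) and -0.51 ± 0.09 (limma adjusted p = 0.000173), and the 3 ng groups then overlapped.

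A difference between paralogues taken on the same array does not change with an equal shift of all log2 signals on it. This was chosen after the values were seen and is a description with no test, and only its shift between groups can be read, since different probes are not on one scale. Compared with the mean at 0 ng, DRAM1 minus DRAM2 was higher by 0.86 at 3 ng for 12 h, 1.31 at 5 ng for 12 h, 1.27 at 3 ng for 24 h and 1.91 at 5 ng for 24 h. Its SD within groups was 0.05 to 0.23, and every induced array was above every uninduced one. ULK1 minus ULK2 was higher by 0.63, 0.75, 0.74 and 0.96 in the same order of groups, with SDs of 0.11 to 0.36, and 1 array of 3 ng for 12 h, at -0.99, lay within the uninduced range of -1.35 to -0.77.

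**Figure D2:**
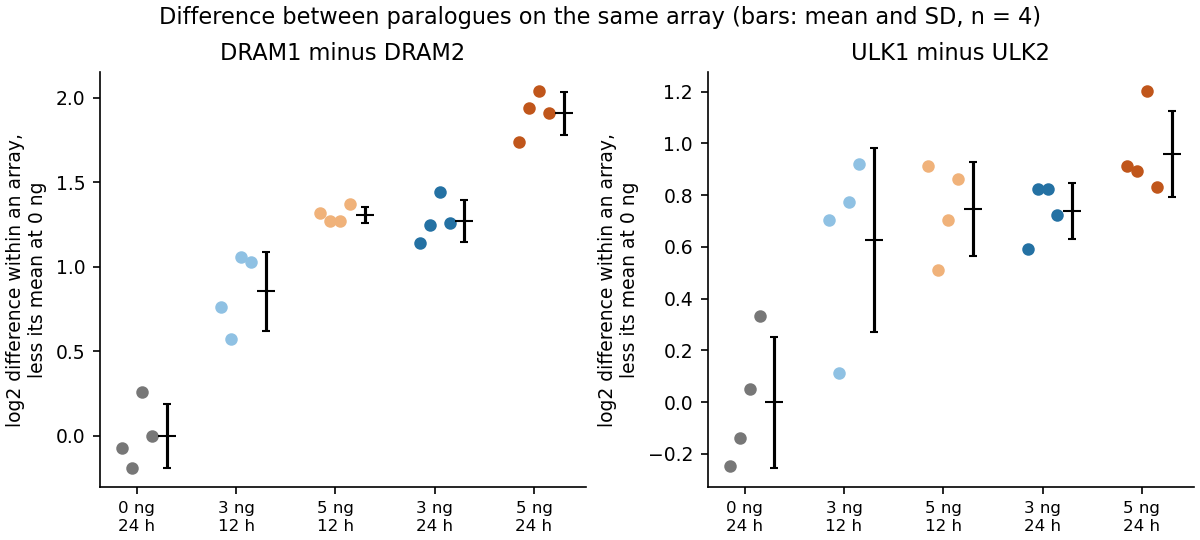
For each array (points), the log2 difference DRAM1 minus DRAM2 (left) and ULK1 minus ULK2 (right) is plotted less its mean at 0 ng, by dose and time, with the mean and SD of 4 arrays beside the points. The DRAM difference reaches 1.91 at 5 ng for 24 h with no induced array among the uninduced ones, and the ULK difference reaches 0.96 with 1 induced array among them.

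**Figure D3:**
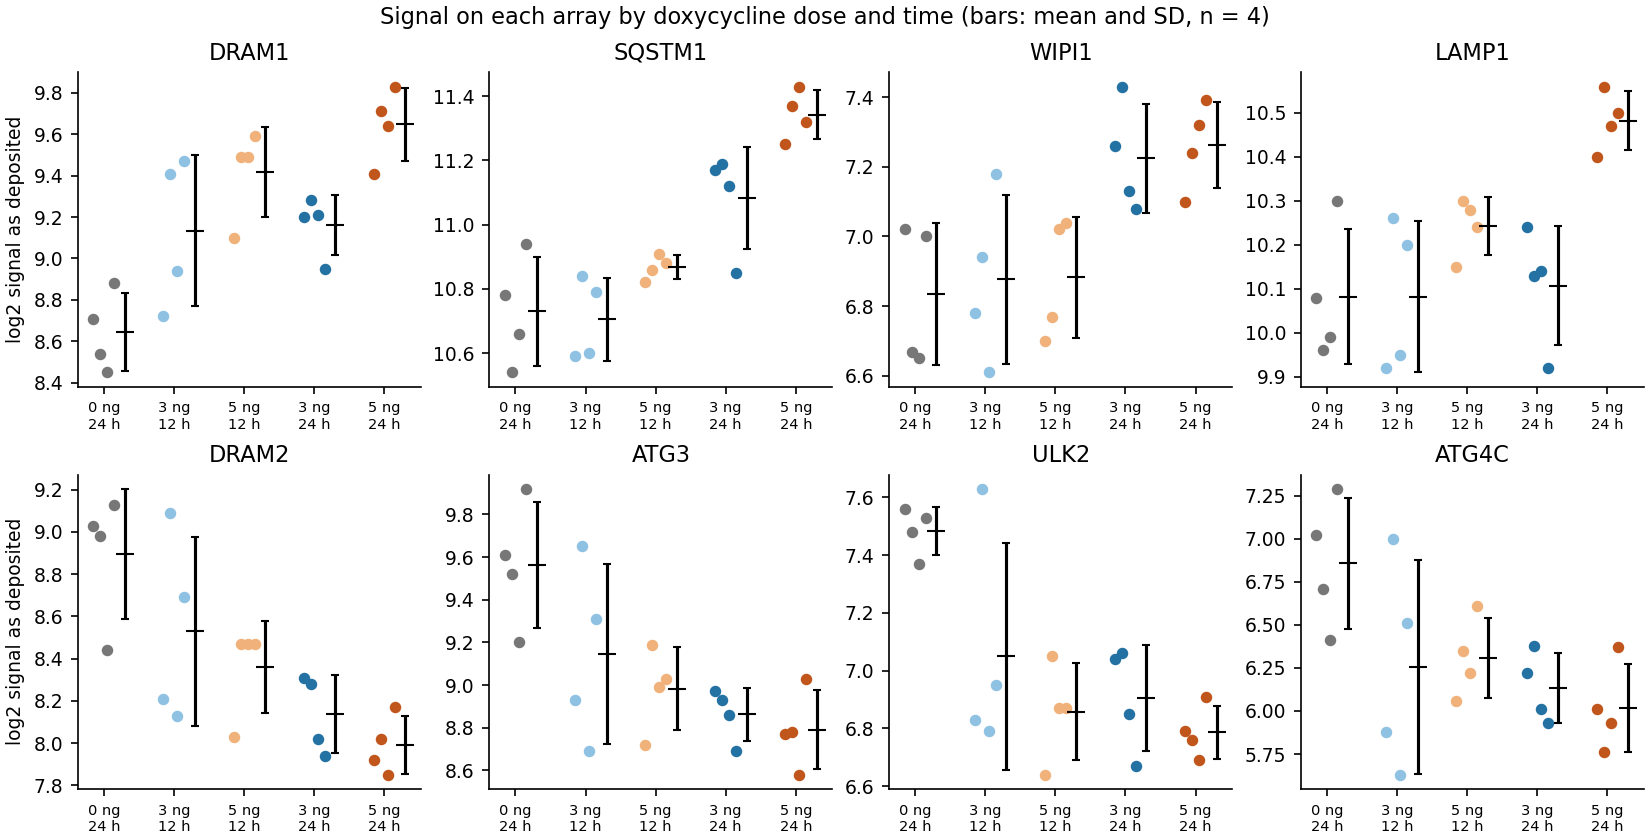
The deposited log2 signal of 8 genes is plotted for each of the 20 arrays, by dose and time, with the mean and SD of 4 arrays beside the points and a separate y axis for each gene. DRAM1, SQSTM1, WIPI1 and LAMP1 (upper row) are highest at 5 ng for 24 h on average, and DRAM2, ATG3, ULK2 and ATG4C (lower row) are highest at 0 ng on average.

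Among the cargo receptors, SQSTM1, which encodes the ubiquitin-binding receptor p62 and is itself degraded by autophagy, rose at both doses. Its signal was 10.78, 10.54, 10.66 and 10.94 at 0 ng, 11.17, 11.19, 11.12 and 10.85 at 3 ng for 24 h, and 11.25, 11.37, 11.43 and 11.32 at 5 ng for 24 h. At 12 h it was 10.59, 10.84, 10.60 and 10.79 at 3 ng, and 10.82, 10.86, 10.91 and 10.88 at 5 ng. The 5 ng arrays at 24 h were above all others, while replicate 4 of 3 ng at 24 h lay within the uninduced range.

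SQSTM1 was higher by 0.35 ± 0.12 at 3 ng, or 1.28-fold (limma adjusted p = 0.0415), and by 0.61 ± 0.12 at 5 ng, or 1.53-fold (limma adjusted p = 0.00068). After quantile normalization the differences were 0.75 ± 0.08 (limma adjusted p = 8.31e-07) and 0.86 ± 0.08 (limma adjusted p = 5.68e-08). The deposited 3 ng call was lost without any 1 of replicates 1, 2 and 3 of either group, at 0.29 to 0.37 with limma adjusted p from 0.0717 to 0.125. SQSTM1 was also the only member to rise between 12 and 24 h at 5 ng, by 0.47 ± 0.12 (limma adjusted p = 0.0291), and by 0.52 ± 0.08 after quantile normalization (limma adjusted p = 0.00014). That deposited call was lost without any 1 of the 8 arrays, at 0.45 to 0.51 with limma adjusted p from 0.0527 to 0.118.

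NBR1, a cargo receptor related to p62, was called after quantile normalization only. It was higher than at 0 ng by 0.63 ± 0.06 at 3 ng (limma adjusted p = 5.82e-07) and by 0.69 ± 0.06 at 5 ng on that scale (limma adjusted p = 7.78e-08). As deposited, its differences were 0.15 ± 0.16 (limma adjusted p = 0.583) and 0.31 ± 0.16 (limma adjusted p = 0.165).

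In the kinase complex that starts autophagosome formation, ULK2 fell at 5 ng and its paralogue ULK1 did not pass as deposited. The ULK2 signal was 7.56, 7.48, 7.37 and 7.53 at 0 ng, 7.04, 7.06, 6.85 and 6.67 at 3 ng for 24 h, and 6.79, 6.76, 6.69 and 6.91 at 5 ng for 24 h. At 12 h it was 6.83, 7.63, 6.79 and 6.95 at 3 ng, and 6.64, 7.05, 6.87 and 6.87 at 5 ng. Replicate 2 of 3 ng at 12 h was above the uninduced arrays, and every other induced array was below them. ULK2 was lower at 5 ng for 24 h by 1.62-fold, a difference of -0.70 ± 0.16 (limma adjusted p = 0.00248), and by -0.31 ± 0.10 after quantile normalization (limma adjusted p = 0.0181). At 3 ng its difference of -0.58 ± 0.16 (limma adjusted p = 0.0123) became -0.16 ± 0.10 after quantile normalization (limma adjusted p = 0.273).

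The ULK1 signal was 6.21, 6.24, 6.32 and 6.76 at 0 ng, 6.53, 6.78, 6.57 and 6.29 at 3 ng for 24 h, and 6.60, 6.55, 6.79 and 6.64 at 5 ng for 24 h. At 12 h it was 6.43, 6.64, 6.46 and 6.77 at 3 ng, and 6.45, 6.46, 6.47 and 6.63 at 5 ng. Replicate 4 at 0 ng lay above most induced arrays, and the groups overlapped. ULK1 differed from 0 ng by 0.26 ± 0.14 at 5 ng as deposited (limma adjusted p = 0.197), by 0.39 without replicate 4 of 0 ng (limma adjusted p = 0.0445), and by 0.59 ± 0.10 after quantile normalization (limma adjusted p = 0.000145). ATG13, the adaptor of the complex, differed by 0.12 ± 0.14 at 5 ng as deposited and by 0.50 ± 0.06 after quantile normalization (limma adjusted p = 7.4e-07 on the latter scale). RB1CC1, the scaffold also called FIP200, was called on neither scale at either dose, with -0.34 ± 0.18 and 0.06 ± 0.06 at 5 ng.

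In the lipid kinase complex, no member changed on both scales at 24 h, and UVRAG fell at 5 ng for 12 h. BECN1, its regulatory subunit, had signals of 8.69, 8.52, 8.41 and 9.03 at 0 ng, 8.62, 8.56, 8.34 and 8.16 at 3 ng for 24 h, and 8.49, 8.73, 8.65 and 8.89 at 5 ng for 24 h. At 12 h its signals were 8.25, 8.90, 8.08 and 8.66 at 3 ng, and 8.27, 8.76, 8.54 and 8.67 at 5 ng. The groups overlapped throughout. BECN1 differed at 5 ng by 0.03 ± 0.18 as deposited (limma adjusted p = 0.934) and by 0.41 ± 0.07 after quantile normalization (limma adjusted p = 7.86e-05).

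PIK3C3, the catalytic lipid kinase, and ATG14, which directs the complex to autophagosome formation, were likewise called higher only after quantile normalization. At 5 ng PIK3C3 differed by -0.04 ± 0.17 as deposited and 0.35 ± 0.07 after it, and ATG14 by -0.12 ± 0.17 and 0.25 ± 0.07. UVRAG, the alternative subunit of the endosomal form of the complex, was called lower only as deposited at 24 h, at -0.49 ± 0.17 (limma adjusted p = 0.0315) against -0.08 ± 0.06 after quantile normalization at 5 ng.

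Of the genes for lipid transfer and for binding the marked membrane, WIPI1 rose at 5 ng. WIPI1 encodes a protein that binds phosphatidylinositol 3-phosphate on the growing membrane. Its signal was 7.02, 6.67, 6.65 and 7.0 at 0 ng, 7.26, 7.43, 7.13 and 7.08 at 3 ng for 24 h, and 7.10, 7.24, 7.32 and 7.39 at 5 ng for 24 h. At 12 h it was 6.78, 6.94, 6.61 and 7.18 at 3 ng, and 6.70, 6.77, 7.02 and 7.04 at 5 ng. Every induced array at 24 h was above the uninduced arrays, and those of 12 h were mixed with them.

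WIPI1 was higher at 5 ng by 0.43 ± 0.15, or 1.34-fold (limma adjusted p = 0.0351), and by 0.78 ± 0.09 after quantile normalization (limma adjusted p = 1.18e-06). Its difference at 3 ng was 0.39 ± 0.15, just outside the threshold as deposited (limma adjusted p = 0.0604), and 0.80 ± 0.09 after quantile normalization (limma adjusted p = 1.98e-06). The deposited 5 ng call was lost when replicate 2, 3 or 4 at 5 ng was removed, and likewise replicate 2 or 3 at 0 ng, at 0.37 to 0.44 with limma adjusted p from 0.0644 to 0.0992. ATG2A and ATG2B, which carry lipid to the growing membrane, and WIPI2 were called higher at 5 ng after quantile normalization only, at 0.29 ± 0.08, 0.54 ± 0.07 and 0.49 ± 0.06, against -0.05 ± 0.16, 0.16 ± 0.17 and 0.10 ± 0.15 as deposited. ATG9A, the scramblase that seeds the membrane, was called on neither scale, at -0.24 ± 0.15 as deposited and 0.12 ± 0.10 after quantile normalization.

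The conjugation genes held 3 of the 6 falls. At 5 ng, 5 of 7 were called lower as deposited, against 23.5% of all genes, and 3 of these, ATG3, ATG5 and ATG16L1, also after quantile normalization, against 17.1% called lower on both scales. Together ATG5, ATG12 and ATG16L1 encode the complex that places LC3 on the membrane, with ATG10 joining ATG12 to ATG5, and ATG3 is the E2-like enzyme that carries LC3. ATG3 signals were 9.61, 9.52, 9.20 and 9.92 at 0 ng, 8.97, 8.93, 8.86 and 8.69 at 3 ng for 24 h, and 8.77, 8.78, 8.58 and 9.03 at 5 ng for 24 h. At 12 h they were 8.93, 9.65, 8.69 and 9.31 at 3 ng, and 8.72, 9.19, 8.99 and 9.03 at 5 ng. All arrays of 24 h with doxycycline were below the uninduced ones.

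ATG3 was lower by 1.62-fold at 3 ng, a difference of -0.70 ± 0.19 (limma adjusted p = 0.00961), and by 1.71-fold at 5 ng, a difference of -0.77 ± 0.19 (limma adjusted p = 0.00357). After quantile normalization its differences were -0.25 ± 0.08 (limma adjusted p = 0.0174) and -0.42 ± 0.08 (limma adjusted p = 0.000186). Both deposited calls were kept without each of the 8 arrays in turn.

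ATG5 signals were 9.01, 8.86, 8.69 and 9.15 at 0 ng, 8.31, 8.52, 8.34 and 8.29 at 3 ng for 24 h, and 8.28, 8.19, 8.34 and 8.49 at 5 ng for 24 h. At 12 h they were 8.42, 9.16, 8.33 and 8.77 at 3 ng, and 8.39, 8.72, 8.76 and 8.68 at 5 ng. The induced arrays at 24 h were all below the uninduced ones, and those of 12 h reached into their range. At 5 ng ATG5 was lower by 1.52-fold, a difference of -0.60 ± 0.16 (limma adjusted p = 0.00808), and by -0.22 ± 0.07 after quantile normalization (limma adjusted p = 0.0135).

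ATG16L1 signals were 7.59, 7.41, 7.19 and 7.79 at 0 ng, 7.14, 6.99, 6.83 and 6.86 at 3 ng for 24 h, and 6.67, 6.97, 6.84 and 7.05 at 5 ng for 24 h. At 12 h they were 6.74, 7.45, 6.68 and 7.29 at 3 ng, and 6.78, 6.94, 6.99 and 7.07 at 5 ng. The induced arrays were below the uninduced ones except replicates 2 and 4 of 3 ng at 12 h. At 5 ng for 24 h ATG16L1 was lower by 1.53-fold, a difference of -0.61 ± 0.17 (limma adjusted p = 0.0103), and by -0.23 ± 0.07 after quantile normalization (limma adjusted p = 0.0196).

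At 3 ng ATG5 and ATG16L1 were called lower as deposited only, at -0.56 ± 0.16 (limma adjusted p = 0.0158) and -0.54 ± 0.17 (limma adjusted p = 0.0265), against -0.09 ± 0.07 and -0.11 ± 0.07 after quantile normalization. Without replicate 4 of 0 ng both of these deposited calls were lost, and that of ATG16L1 also without uninduced replicate 1 or replicate 3 or 4 of 3 ng. ATG10 and ATG12 were called lower as deposited at both doses and at neither after quantile normalization, with 5 ng differences of -0.54 ± 0.19 and -0.58 ± 0.16 as deposited and of -0.16 ± 0.09 and -0.20 ± 0.08 after it. ATG7, the E1-like enzyme shared by both conjugation systems, differed at 5 ng by -0.12 ± 0.15 as deposited and by 0.27 ± 0.06 after quantile normalization (limma adjusted p = 0.00159 on the latter scale). ATG16L2, a paralogue of ATG16L1, was called higher at 5 ng after quantile normalization only, at 0.29 ± 0.08 against 0.02 ± 0.17 as deposited. The median of the 7 conjugation genes at 5 ng was -0.58 as deposited and -0.20 after quantile normalization, below the medians of all genes on both scales.

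Of the ATG4 proteases, which prepare LC3-type proteins for conjugation and release them afterwards, ATG4C fell at 5 ng. Its signals were 7.02, 6.71, 6.41 and 7.29 at 0 ng, 6.22, 6.38, 6.01 and 5.93 at 3 ng for 24 h, and 6.01, 5.76, 5.93 and 6.37 at 5 ng for 24 h. At 12 h they were 5.88, 7.0, 5.63 and 6.51 at 3 ng, and 6.06, 6.35, 6.22 and 6.61 at 5 ng. The spread was widest at 3 ng for 12 h, and the arrays at 24 h with doxycycline lay below the uninduced ones.

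ATG4C was lower at 5 ng by 1.79-fold, a difference of -0.84 ± 0.25 (limma adjusted p = 0.013), and by -0.45 ± 0.13 after quantile normalization (limma adjusted p = 0.0102). Without replicate 4 of 0 ng its deposited difference was -0.70 and the call was lost (limma adjusted p = 0.0627). ATG4A and ATG4D were called higher at 5 ng after quantile normalization only, at 0.60 ± 0.08 and 0.57 ± 0.09, against 0.22 ± 0.19 and 0.20 ± 0.13 as deposited. ATG4B was called on neither scale, at -0.29 ± 0.14 and 0.10 ± 0.07.

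Of the lysosomal genes, LAMP1, a major glycoprotein of the lysosomal membrane, rose at 5 ng. Its signals were 10.08, 9.96, 9.99 and 10.30 at 0 ng, 10.24, 10.13, 10.14 and 9.92 at 3 ng for 24 h, and 10.40, 10.56, 10.47 and 10.50 at 5 ng for 24 h. At 12 h they were 9.92, 10.26, 9.95 and 10.20 at 3 ng, and 10.15, 10.30, 10.28 and 10.24 at 5 ng. The 5 ng arrays at 24 h were above the other 16 arrays, which overlapped each other.

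LAMP1 was higher at 5 ng by 0.40 ± 0.12, or 1.32-fold (limma adjusted p = 0.0188), and by 0.71 ± 0.07 after quantile normalization (limma adjusted p = 9.45e-08). The deposited call was lost without replicate 2 of 5 ng, at 0.37 (limma adjusted p = 0.0591), or replicate 2 of 0 ng, at 0.36 (limma adjusted p = 0.0576). Between 3 and 5 ng LAMP1 differed by 0.38 ± 0.12 as deposited (limma adjusted p = 0.159) and by 0.25 ± 0.07 after quantile normalization (limma adjusted p = 0.022). LAMP2, its relative needed for lysosome fusion and chaperone-mediated autophagy, was called on neither scale at either dose, with -0.21 ± 0.17 as deposited and 0.07 ± 0.06 after quantile normalization at 5 ng.

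TFEB, the transcription factor that drives lysosomal and autophagy genes through E-box motifs, was called on neither scale. Its signals were 4.99, 5.02, 5.02 and 5.21 at 0 ng, 5.01, 5.01, 4.93 and 4.77 at 3 ng for 24 h, and 4.96, 4.58, 5.15 and 5.02 at 5 ng for 24 h. At 12 h they were 4.86, 5.36, 4.88 and 5.21 at 3 ng, and 4.90, 4.71, 5.39 and 5.24 at 5 ng. These are close to the array medians, and the groups overlapped. TFEB differed at 5 ng by -0.13 ± 0.16 as deposited (limma adjusted p = 0.615) and by 0.14 ± 0.10 after quantile normalization (limma adjusted p = 0.286).

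The cathepsins, the proteases of the lysosome, did not move as a group. At 5 ng CTSB differed by 0.18 ± 0.12 as deposited and 0.37 ± 0.07 after quantile normalization, and CTSD by 0.07 ± 0.12 and 0.34 ± 0.11, and each was called on the latter scale alone. CTSL was called lower as deposited, at -0.46 ± 0.16 (limma adjusted p = 0.0321), and differed by -0.08 ± 0.06 after quantile normalization (limma adjusted p = 0.341).

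The promoters of the members were searched for the E-box CACGTG, the core of the motif that TFEB and its relatives bind, because lysosomal genes such as LAMP1 and CTSD are known TFEB targets. RefSeq promoters of GRCh38.p14, each 300 bases from 250 before to 50 after a gene's start, were found for 29 of the 34 genes, as 36 promoters. CACGTG reads the same on both strands, and was in 4 of these 36 promoters, those of LAMP1, CTSD, ATG3 and ATG14, and in 7.26% of all 35116 promoters. It was in 18.8% of 144 promoters of the wider list of other pathway genes described below, against 11.1% for the members. The longer TCACGTGA, which contains CACGTG and also reads the same on both strands, was in the promoters of LAMP1 and ATG3 and in 0.98% of all promoters. In the wider list it was in 9.72% of promoters, against 5.56% for the members. The stretches before the start that hold matches are shown with CACGTG in capitals, 5′ to 3′ on the strand of the gene. LAMP1 is shown at chr13:113297039-113297238 (+ strand), CTSD at chr11:1763942-1764001 (- strand), ATG3 at chr3:112561963-112562007 (- strand) and ATG14 at chr14:55411831-55411878 (- strand).
LAMP1: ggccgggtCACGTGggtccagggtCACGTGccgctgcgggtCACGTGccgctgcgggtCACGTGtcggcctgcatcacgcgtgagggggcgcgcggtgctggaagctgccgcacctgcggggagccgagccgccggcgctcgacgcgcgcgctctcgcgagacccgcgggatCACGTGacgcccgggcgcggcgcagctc
CTSD: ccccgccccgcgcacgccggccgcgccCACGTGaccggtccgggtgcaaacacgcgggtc
ATG3: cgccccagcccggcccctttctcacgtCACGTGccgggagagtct
ATG14: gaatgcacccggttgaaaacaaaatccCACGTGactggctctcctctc

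The LAMP1 window holds 5 copies of CACGTG, and a sixth lies 1 base before the start, across the end of the window shown. ATG3 has a second copy just after its start. Of the 4 genes with the motif, LAMP1 rose at 5 ng, ATG3 fell at both doses, and CTSD and ATG14 were called higher at 5 ng after quantile normalization only. The decamer of the p53 consensus, with no mismatch allowed, was in 0 of the 36 member promoters and in 6.63% of all promoters, which says only that these letters are not in these windows.

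At 12 h, DRAM1 was the member with the largest rise. The 12 h groups were compared with 0 ng at 24 h, the only uninduced group, so they differ from it in time as well as dose. At 5 ng for 12 h, DRAM1 was higher by 0.77 ± 0.17 as deposited, or 1.71-fold (limma adjusted p = 0.00413), and by 1.04 ± 0.08 after quantile normalization (limma adjusted p = 9.36e-09). ULK2 (-0.63 ± 0.16, limma adjusted p = 0.0123), UVRAG (-0.57 ± 0.17, limma adjusted p = 0.0235), ATG3 (-0.58 ± 0.19, limma adjusted p = 0.0422) and ATG16L1 (-0.55 ± 0.17, limma adjusted p = 0.0363) fell. After quantile normalization these 4 differences were -0.40 ± 0.10, -0.30 ± 0.06, -0.34 ± 0.08 and -0.31 ± 0.07, each called lower.

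As deposited, 1 member was called higher and 4 lower at 5 ng for 12 h, against 3.44% and 11.5% of all genes. After quantile normalization 9 were called higher and 5 lower, against 11.5% and 14.3%. Without replicate 1 of that group, on which 7 members lay apart from the other arrays and low, DRAM1 was the 1 member still called as deposited, and ULK2 (-0.55), UVRAG (-0.51), ATG3 (-0.49) and ATG16L1 (-0.49) were not. The median of that array was 4.70, and that of replicate 2 was 4.72. After quantile normalization only ATG10 and DRAM2 of these 7 members were still lowest on replicate 1, and the reason was not tested. With all arrays 5 members were called, with replicate 3 of 5 ng at 12 h left out 3, and with an uninduced array left out 2 (replicate 1 or 4) or 3 (replicate 2).

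At 3 ng for 12 h no member was called as deposited, where 7 had an unadjusted p under 0.05 (limma) and 1.57% of all genes were called higher and 1.24% lower. After quantile normalization DRAM1, ATG13 and LAMP1 were called higher and UVRAG, ATG16L1 and ATG4C lower, against 6.61% and 8.57% of all genes. DRAM1 differed by 0.49 ± 0.17 as deposited (limma adjusted p = 0.13) and 0.74 ± 0.08 after quantile normalization (limma adjusted p = 1.92e-06). Without replicate 2 of this group, which was the brightest of its group for most members, 7 members were called lower as deposited. The median of that array, 5.54, was the highest of the group. The share of all genes called in that fit was not counted, so the 7 cannot be read as particular to the members.

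**Figure D4:**
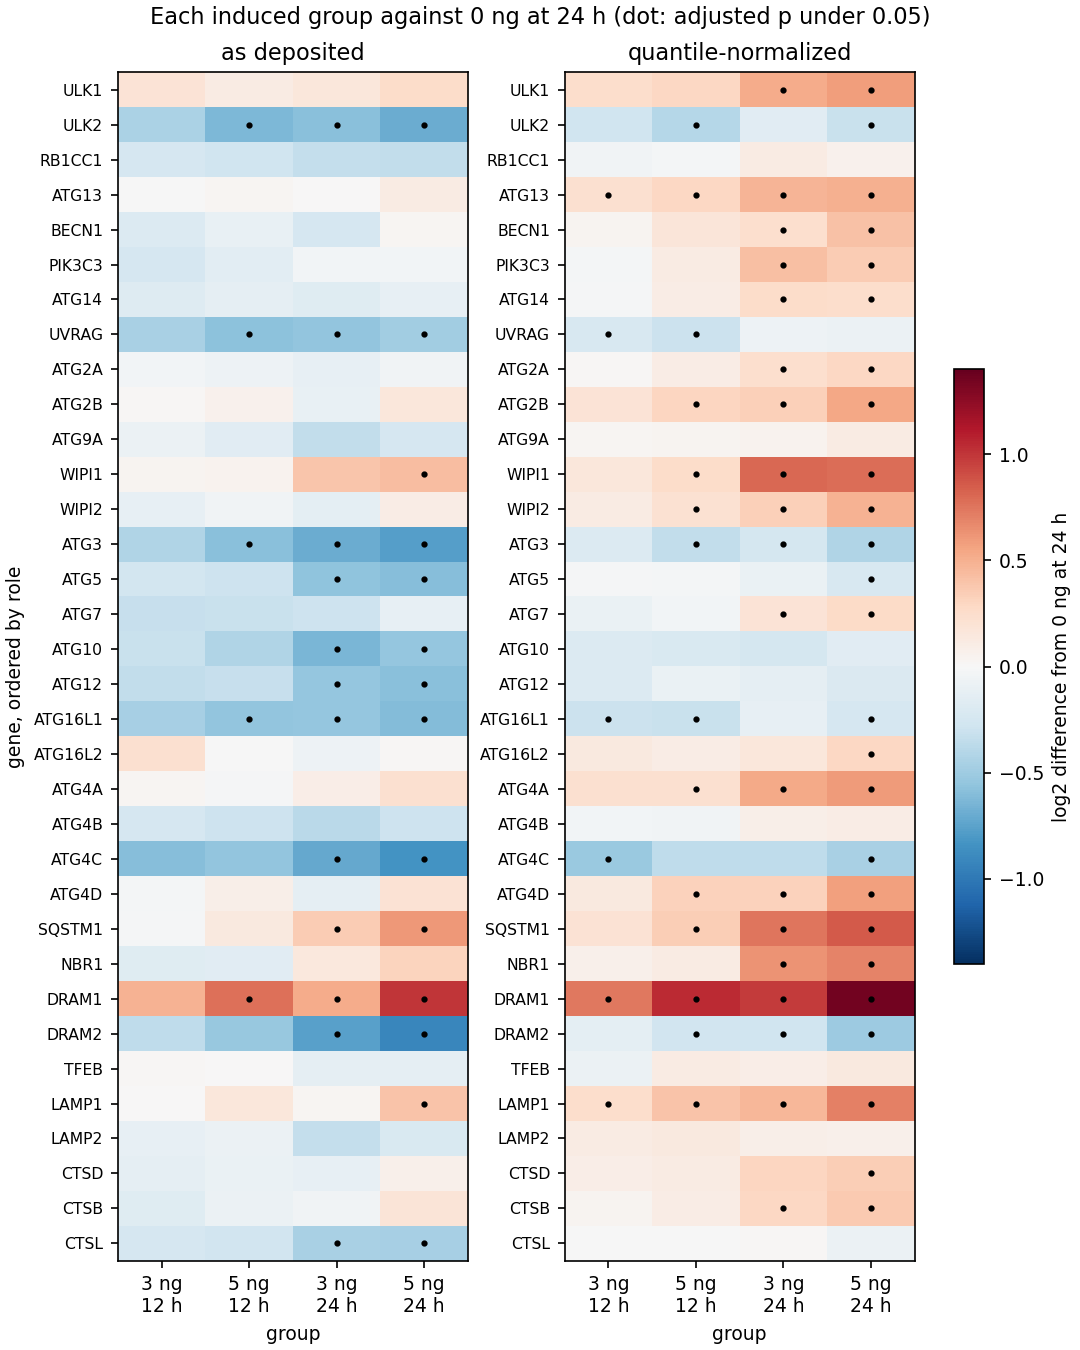
The log2 difference of each induced group from 0 ng at 24 h is shown as colour (red higher, blue lower) for the 34 genes in order of role, as deposited (left) and after quantile normalization (right), with a dot for an adjusted p under 0.05. DRAM1, ULK1 and WIPI1 are higher than at 0 ng in all 4 groups on both scales. ULK2, UVRAG, ATG3, ATG5, ATG10, ATG12, ATG16L1, ATG4C and DRAM2 are lower in all 4 on both. Some of these differences are small and show as pale colour.

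Between doses, no member was called as deposited, at 24 h or at 12 h (limma), where 4 and 0 members had an unadjusted p under 0.05. Of all genes, 1.79% were called higher and 0.755% lower at 5 ng than at 3 ng at 24 h, and 0.0217% higher and 0% lower at 12 h. After quantile normalization DRAM1 and LAMP1 were called higher at 24 h, where 5.96% of all genes were called higher and 4.42% lower. At 12 h DRAM1 was called higher on that scale, by 0.30 ± 0.08 (limma adjusted p = 0.0409), where 2.32% of all genes were called higher and 0.424% lower.

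Between times, no member was called at 3 ng as deposited (limma), where 2 had an unadjusted p under 0.05 and 0.0706% of all genes were called higher and 4.36% lower. At 5 ng SQSTM1 alone was called, against 0.424% higher and 3.55% lower. After quantile normalization 12 members were called higher from 12 to 24 h at 3 ng and 15 at 5 ng, with 0 lower at each, where 9.92% and 10.8% of all genes were called higher and 6.06% and 7.6% lower. The 3 largest of these at 5 ng were NBR1 at 0.58 ± 0.06, SQSTM1 at 0.52 ± 0.08 and WIPI1 at 0.52 ± 0.09, with deposited differences of 0.47 ± 0.16, 0.47 ± 0.12 and 0.38 ± 0.15. No member had a called interaction of dose and time on either scale (limma), and 0 had an unadjusted p under 0.05 on either scale. Of all genes, 0% had a called interaction as deposited, and 0.00543% a positive and 0.0652% a negative one after quantile normalization.

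A wider list of 141 other genes of the pathway, of which 130 had a named cluster, was measured beside the members. At 5 ng for 24 h, 20 of the 130 were called higher and 17 lower as deposited, against 4.52% and 23.5% of all genes, and 77 and 13 after quantile normalization, against 20.6% and 17.2%. On both scales 20 were higher and 13 lower, against 4.52% and 17.1%. At 3 ng the counts were 6 and 17 as deposited (1.5% and 23% of all genes), 72 and 9 after quantile normalization (15.4% and 12.5%), and 6 and 9 on both (1.5% and 12.4%). The median at 5 ng was 0.01 as deposited beside -0.24 for all genes, and 0.35 after quantile normalization beside 0.07.

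Between 3 and 5 ng at 24 h, 7 of the wider list were called higher and 0 lower as deposited, against 1.79% and 0.755% of all genes, and 19 and 3 after quantile normalization, against 5.96% and 4.42%. The deposited calls of LAMP3 and IDUA were kept without each of the 8 arrays in turn. The call of TIGAR was lost without any 1 of them, that of VAMP8 without any but replicate 1 of 3 ng, and that of GAA without any but replicate 1 of 5 ng. That of MAN2B1 was lost without replicate 2, 3 or 4 of 5 ng or without replicate 2 or 4 of 3 ng, and that of SESN1 without replicate 4 of either group. After quantile normalization these 5 differed between the doses by 0.51 ± 0.05, 0.40 ± 0.05, 0.57 ± 0.12, 0.52 ± 0.07 and 0.68 ± 0.08, in the order given.

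The largest rise was that of LAMP3, a lysosomal membrane protein related to LAMP1. It rose by 1.21 ± 0.19 at 3 ng (limma adjusted p = 0.000117), by 2.27 ± 0.19 at 5 ng (limma adjusted p = 1.05e-08) and by 1.06 ± 0.19 between the doses (limma adjusted p = 0.00275). After quantile normalization these differences were 1.65 ± 0.18, 2.58 ± 0.18 and 0.93 ± 0.18. Of 15 genes of lysosomal membrane and sorting, 2 rose and 2 fell at 5 ng, against 4.52% and 17.1% of all genes. At 3 ng 1 rose and 2 fell, against 1.5% and 12.4%. GNPTAB rose at 5 ng by 0.56 ± 0.14 as deposited and 0.93 ± 0.06 after quantile normalization. M6PR fell at 3 ng, at -0.64 ± 0.15 and -0.24 ± 0.05, and at 5 ng, at -0.62 ± 0.15 and -0.34 ± 0.05. NPC1 fell at 3 ng, at -0.65 ± 0.15 and -0.18 ± 0.06.

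Among 28 nutrient-sensing genes, SESN1, a p53 target that restrains mTORC1, rose by 1.01 ± 0.18 at 3 ng and 1.80 ± 0.18 at 5 ng, and by 1.44 ± 0.08 and 2.12 ± 0.08 after quantile normalization. TIGAR, a p53 target that limits glycolysis, rose at 5 ng by 1.03 ± 0.16, and by 1.37 ± 0.05 after it. RHEB and MTOR, the activator and the kinase of mTORC1, fell at 3 ng, at -0.68 ± 0.17 and -0.67 ± 0.15 as deposited but only -0.23 ± 0.06 and -0.20 ± 0.05 after quantile normalization. PRKAA1, a catalytic subunit of AMPK, fell at 5 ng, at -0.70 ± 0.19 and -0.34 ± 0.07 on these scales. Of the 28 genes, 5 rose and 3 fell at 5 ng, against 4.52% and 17.1% of all genes. At 3 ng 1 rose and 3 fell, against 1.5% and 12.4%. Genes were named for each dose apart, by size of change, so those named at 1 dose may have changed at the other.

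Among 9 selective receptors, NCOA4, the ferritin receptor, rose at 5 ng by 0.54 ± 0.16 as deposited and 0.84 ± 0.06 after quantile normalization, and BNIP3L, a receptor on mitochondria, rose by 0.49 ± 0.14 and 0.80 ± 0.07. Of the 9, 0 fell, where 4.52% of all genes rose and 17.1% fell. VAMP8, a SNARE of the fusion of autophagosomes with lysosomes, rose at 3 ng by 0.45 ± 0.14 and 0.85 ± 0.05 on these scales, and at 5 ng by 1.01 ± 0.14 and 1.25 ± 0.05. Its deposited 3 ng call was lost without replicate 1 or 3 of 3 ng or uninduced replicate 2 or 3, at 0.39 to 0.44 with limma adjusted p from 0.0569 to 0.0661. PLEKHM1, a tethering adaptor, rose at 5 ng by 0.53 ± 0.16 and 0.87 ± 0.15.

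Of 25 other lysosomal hydrolases and their activators, 5 rose and 4 fell at 5 ng, against 4.52% and 17.1% of all genes. IDUA (alpha-L-iduronidase) differed by 1.43 ± 0.16 as deposited and 1.69 ± 0.15 after quantile normalization, MAN2B1 (lysosomal alpha-mannosidase) by 1.07 ± 0.14 and 1.42 ± 0.07, and GLA (alpha-galactosidase A) by -1.43 ± 0.17 and -1.04 ± 0.09. At 3 ng, 3 of the 25 rose and 2 fell, against 1.5% and 12.4% of all genes. Among these, GM2A rose by 0.59 ± 0.14 and 0.99 ± 0.06. The falls were those of GLA, at -1.11 ± 0.17 and -0.72 ± 0.09, and GUSB, at -0.72 ± 0.15 and -0.24 ± 0.07. Of 11 lysosomal proteases, TPP1 rose at 5 ng, by 0.74 ± 0.15 and 1.10 ± 0.07, and CTSV fell, at -0.80 ± 0.20 and -0.41 ± 0.11. CTSV also fell at 3 ng, at -0.95 ± 0.20 and -0.53 ± 0.11.

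Among 16 vacuolar ATPase genes, whose pump acidifies the lysosome, ATP6AP2 rose at 5 ng by 0.71 ± 0.14 as deposited and 1.02 ± 0.06 after quantile normalization, and its deposited call was kept without each of the 8 arrays. ATP6V0A1 rose by 0.42 ± 0.14 and 0.79 ± 0.07, but its deposited call was lost without replicate 2, 3 or 4 of 5 ng or uninduced replicate 2 or 3, at 0.34 to 0.43 with limma adjusted p from 0.0502 to 0.0925. ATP6V0A2 fell at 5 ng, at -1.16 ± 0.20 and -0.76 ± 0.12, and at 3 ng, at -0.96 ± 0.20 and -0.54 ± 0.12. PIK3R4 and WDR45B, of the initiation and lipid kinase complexes, fell at 5 ng, at -0.61 ± 0.17 and -0.57 ± 0.15 as deposited and -0.21 ± 0.07 and -0.22 ± 0.08 after quantile normalization. Of 6 genes for LC3-type proteins and their processing, 0 were called as deposited and 3 higher after quantile normalization, against 20.6% of all genes on that scale.

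**Figure D5:**
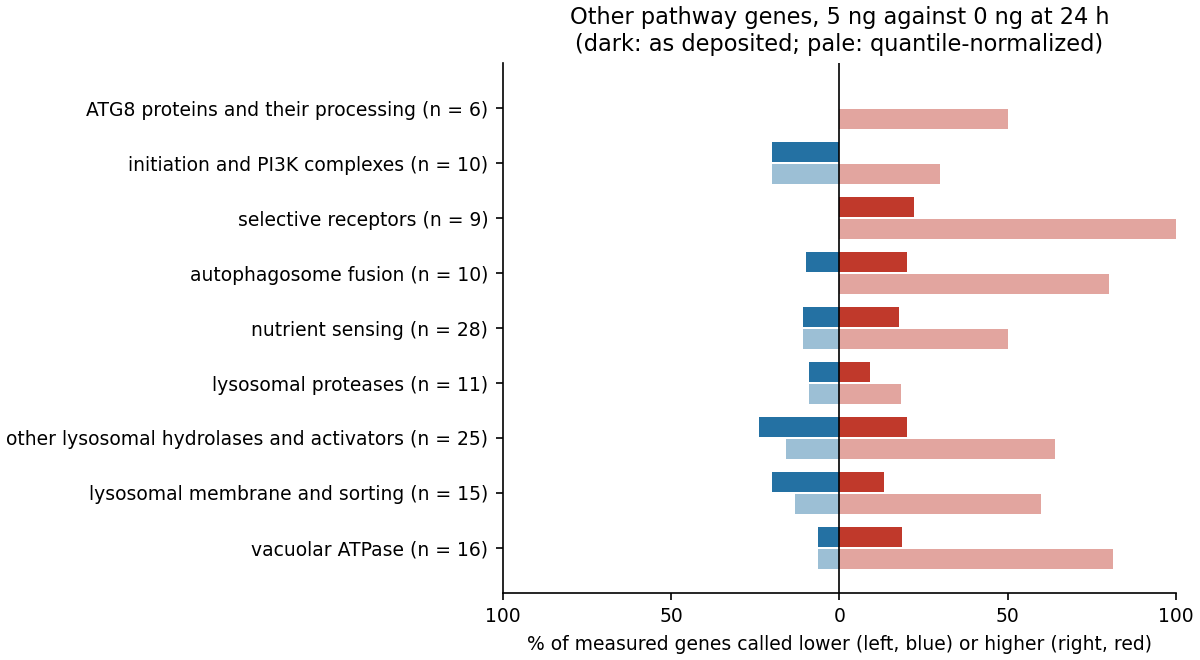
Bars give the percentage of measured genes of each of 9 other pathway lists called lower (left, blue) or higher (right, red) at 5 ng against 0 ng at 24 h, dark as deposited and pale after quantile normalization, with the number of genes measured beside each list name. The pale red bars are longer than the dark red ones in all 9 lists, and all 9 selective receptors are called higher after quantile normalization, where 20.6% of all genes are.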

How the data were processed

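Log2 signals, 1 per transcript cluster and array, were used as deposited; the submitters' processing notes name GCOS, GCRMA, Affymetrix Power Tools and limma, without versions or order, and the scaling between arrays is not stated in the sources used here. Of 33297 clusters, 19460 had 1 gene symbol in the platform annotation, 1754 had several and 12083 were not listed; the brightest cluster stood for each of 18417 genes, and none was filtered. Limma 3.58.1 under R 4.3.3 fitted 1 mean per group to 20 arrays (15 residual degrees of freedom), with eBayes and Benjamini-Hochberg over all genes at 0.05, and was tested on simulated data. Quantile normalization used all clusters. The alternatives were quantile normalization, centring on array medians, a replicate block, removal of the dimmest 30% of genes, the mean of clusters, trend and robust options, only the groups compared, and each array left out. The number of arrays limits the precision. Members, lists and tests were chosen with earlier results of these data known. The text names every member, gives each array for members called alike on both scales in comparisons of dose or time alone and for DRAM1, ULK1, SQSTM1, TFEB and BECN1, and names up to 3 other genes per list with the largest change called alike on both scales at 24 h. These other genes were picked for each comparison apart, so a gene named at 1 dose may also be called at the other. Arrays of 1 group were never identical.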

Additional observations from a re-analysis of the deposited data

Results flagged for a closer look

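In each group of 4 arrays, the highest or lowest value of a member was compared with its nearest neighbour, and 13 of 170 such groups had a gap, as a share of the group's range, above Dixon's critical value for 4 samples, where chance gives about 1 in 20 groups. Of these, 7 were low values of replicate 1 of 5 ng at 12 h: RB1CC1 at 7.39, UVRAG at 7.82, ATG10 at 6.30, ATG12 at 6.84, ATG4B at 7.53, DRAM2 at 8.03 and LAMP2 at 10.08. The median of that array was 4.70. After quantile normalization UVRAG at 8.03 and ATG4B at 7.72 were the highest of their 4 values on that array. RB1CC1, ATG12 and LAMP2 then lay within their groups, and ATG10 at 6.51 and DRAM2 at 8.22 stayed the lowest. In the same group ULK1 was high on replicate 4, at 6.63. At 5 ng for 24 h, UVRAG was high on replicate 4 at 8.21, CTSD was low on replicate 4 at 10.54 and ATG2A was low on replicate 2 at 6.26. At 0 ng, ATG2A was low on replicate 2 at 6.21 and TFEB was high on replicate 4 at 5.21.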

How the results depend on the processing

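The scale of the arrays moved the results most. Of 34 members, the number called was 12 at 3 ng and 14 at 5 ng for 24 h as deposited, 19 and 25 after quantile normalization, and 22 at 5 ng after centring. Between 3 and 5 ng the counts of 0 at 24 h and 0 at 12 h became 2 and 1 after quantile normalization, and 2 at 24 h after centring. Between 12 and 24 h the counts of 0 at 3 ng and 1 at 5 ng became 12 and 15 after quantile normalization and 5 and 9 after centring, with 1 member at 3 ng under trend and robust options and 2 at 5 ng with only the groups compared. For 3 ng at 12 h the count of 0 members became 6 after quantile normalization, 11 after centring and 1 under trend and robust options, and for 5 ng at 12 h the count of 5 became 14 after quantile normalization and 2 with only the groups compared. Of the 34 members, the number with a difference above 0 was 8 at 3 ng and 15 at 5 ng for 24 h as deposited, and 25 and 24 after quantile normalization. Among members called on at least 1 of these scales, quantile normalization turned the sign of BECN1 (0.23), PIK3C3 (0.42), ATG14 (0.26), ATG2A (0.24), ATG2B (0.33), WIPI2 (0.33), ATG7 (0.19), ATG4D (0.32), CTSB (0.29) and CTSL (0.02) at 3 ng for 24 h, of PIK3C3 (0.35), ATG14 (0.25), ATG2A (0.29) and ATG7 (0.27) at 5 ng for 24 h, of WIPI2 between times at 3 ng (0.22), of ATG13 (0.22) and LAMP1 (0.25) for 3 ng at 12 h and of WIPI2 (0.21) and ATG4A (0.22) for 5 ng at 12 h, and centring turned ATG2A at 5 ng for 24 h (0.26). The cause was not tested. The share of all genes called was not counted under centring, trend and robust options or only the groups compared. It was not counted with arrays left out either, so counts of members in these fits show only their dependence on the processing.

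With each array left out in turn, the number of members called ranged from 4 to 11 at 3 ng and from 9 to 13 at 5 ng for 24 h, from 0 to 7 for 3 ng at 12 h and from 1 to 6 for 5 ng at 12 h. It was 0 each time between times at 5 ng, and 0 each time in the comparisons of dose, of times at 3 ng and of the interaction. With the replicate number as a block, 11 members were called at 3 ng and 14 at 5 ng for 24 h, 6 for 5 ng at 12 h, 1 between times at 5 ng and 0 in the other comparisons. Over all genes the block moved the calls from 4504 to 4796 at 3 ng and from 5166 to 5398 at 5 ng. Same-numbered arrays had correlated deviations over 0.1 in 13 of 40 pairs (lowest -0.179), and 13 of 20 arrays correlated best with their own number, 20 of 20 after quantile normalization, which is a hint from the data and not the design. The block was fitted to the deposited signals only, so all calls after quantile normalization were made without it. Removing the dimmest genes and taking the mean of clusters moved no count of members by over 1.5 times. The deposited calls of UVRAG, ATG10 and CTSL at 5 ng for 24 h were each lost in 5 of 8 fits that left out 1 array.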
